A study of Mus musculus with 9 samples.

Results

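Pericyte and contractile genes were followed as 2 sets of 5 genes each in mouse cells of the brain tumor microenvironment. The pericyte genes were Rgs5, Kcnj8, Abcc9, Pdgfrb and Higd1b, and the contractile genes were Acta2, Tagln, Myh11, Myl9 and Des. These 10 genes were chosen as known markers, with earlier results of these data known, and all 10 were listed in each of the 9 count tables, among the 12580 gene symbols that every table shared and the 33274 listed in at least 1. Expression was measured in single cells by Drop-seq, which tags mRNA at its 3′ end. Nu-NB was 1 library of normal nude mouse brain. The untreated PDOXs, patient-derived orthotopic xenografts, were the 7 glioblastoma models P3, P8, P13, T16, T101, T192 and T233, grown in the brain of female athymic nude mice by implanting patient tumor organoids, with 1 library each. PDOX TMZ was 1 library of the P3 model treated with temozolomide (TMZ), an alkylating drug, for which the study's methods give the P3 controls the drug's vehicle. All 9 libraries came from nude hosts, which lack a thymus and mature T cells but keep B and NK cells. T192 and T233 came from tumors of the same patient. FACS sorting was used for P8 and Nu-NB, whose tables listed symbols of an older annotation release, whereas the other libraries were purified with magnetic beads and listed a newer one, so sort and release cannot be told apart. The labels do not give the number of mice behind a library.

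Mural cells sit on the outer wall of blood vessels. Pericytes cover capillaries within the endothelial basement membrane and are recruited by PDGF-B, which endothelial cells release and the receptor encoded by Pdgfrb binds. Smooth muscle cells wrap arterioles and venules and constrict them through actin and myosin filaments. In the brain, pericytes are known for their part in the blood-brain barrier, and in tumors for covering newly formed vessels unevenly.

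The pericyte genes encode proteins of several kinds. Rgs5, a GTPase-activating protein that shortens G protein signaling, lies on chr1:169655501-169695813 (mm10, GRCm38, positions counted from 1, plus strand). Kcnj8 and Abcc9 encode the pore and the regulatory subunit of an ATP-sensitive potassium channel. They lie next to each other on the minus strand, at chr6:142564837-142571614 and chr6:142587862-142702315, with 16247 bases and no annotated gene between them. Pdgfrb, the PDGF receptor beta, lies on chromosome 18, and Higd1b, a small mitochondrial protein gene, at chr11:102835849-102838040 on the plus strand.

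The contractile genes encode parts of the force-generating machinery. Acta2 encodes smooth muscle alpha-actin (chr19:34241090-34255590, minus strand) and Tagln the actin-binding protein transgelin (chr9:45929619-45936058, minus strand). Myh11 encodes the smooth muscle myosin heavy chain (chr16:14194535-14291372, minus strand) and Myl9 a regulatory myosin light chain (chr2:156775420-156781658, plus strand). Des encodes desmin, the intermediate filament protein of muscle (chr1:75360329-75368579, plus strand). In the GENCODE annotation no other gene overlapped a member on the same strand, while Abcc9, Tagln and Des were overlapped on the opposite strand.

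Many smooth muscle genes are known to be driven by serum response factor through the CArG box, a motif of 10 letters that begins with CC, ends with GG and holds 6 letters A or T between them. Promoter windows of 300 bases, 250 before and 50 after the start (RefSeq, GRCm38.p6), were on hand for 6 of the 10 members, Rgs5, Kcnj8, Abcc9, Acta2, Myl9 and Des. Both strands were searched, since the motif reads alike on both. An exact CArG box was found in 1 of the 6 windows, that of Myl9, and in 1.63% of the 32851 windows of all genes. With up to 1 mismatch a match was found in 3 of the 6 windows, those of Myl9, Acta2 and Kcnj8, and in 21.1% of all windows, so such a match is common. The windows of the contractile genes Myl9 and Acta2 are shown because they held 2 matches each, with the exact and the 1-mismatch matches in capitals. A match is a description of the letters and was not tested as a site.
Myl9 (chr2:156775214-156775513, plus strand): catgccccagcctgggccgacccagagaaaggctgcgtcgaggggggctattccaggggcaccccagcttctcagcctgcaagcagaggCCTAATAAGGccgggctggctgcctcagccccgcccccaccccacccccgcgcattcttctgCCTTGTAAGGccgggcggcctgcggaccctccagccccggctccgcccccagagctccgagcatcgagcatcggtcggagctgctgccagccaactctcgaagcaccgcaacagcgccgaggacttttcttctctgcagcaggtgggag
Acta2 (chr19:34255324-34255623, minus strand): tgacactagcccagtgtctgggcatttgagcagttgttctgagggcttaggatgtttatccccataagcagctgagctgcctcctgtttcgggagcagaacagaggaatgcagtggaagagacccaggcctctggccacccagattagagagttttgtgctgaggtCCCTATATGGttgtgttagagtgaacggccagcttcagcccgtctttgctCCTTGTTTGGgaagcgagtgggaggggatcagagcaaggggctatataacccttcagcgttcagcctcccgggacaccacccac
The exact match of Myl9 began 161 bases before the start and its 1-mismatch match 99 bases before it, and the 1-mismatch matches of Acta2 began 84 and 34 bases before the start.

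Cells were clustered without the members and without the related genes listed further on, and clusters were named by other markers, so that the members named no class. Of 14622 cells kept, 670 were mural-like, of which 494 formed a pericyte-like cluster (Vtn, Notch3, Ndufa4l2 and 7 further markers, all 10 enriched) and 176 a smooth muscle-like cluster (Mustn1, Pln, Sncg and 3 further markers, all 6 enriched). Other leading genes of the pericyte-like cluster included the extracellular matrix genes Mgp, Col3a1 and Bgn. Mural-like cells made up 0.845% of kept cells in Nu-NB, which was 15 cells (exact 95% binomial interval 0.474% to 1.39%), and 1.94% (T101) to 9.71% (P13) in the PDOXs, with a median of 3.22%. The tables summed to 1519323 UMIs (unique molecular identifiers, each standing for 1 captured mRNA molecule) in Nu-NB and to between 1294068 and 8410580 in the PDOXs, with P13 the deepest. Pairs of libraries shared 0 to 11 cell barcodes. Levels are given as CPM, the UMIs of a gene per 1000000 UMIs of the 12580 shared symbols, summed over the cells of a class in 1 library. The mural-like sums held markers of other cell types, and the 8 myeloid markers together ranged from 589 CPM in P8 to 18372 in T233, with 6378 in Nu-NB. T233 had 18 mural-like cells. The part of these other cells in the levels below was not tested.

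The 5 pericyte genes stood highest in pericyte-like cells, and their ranges over the PDOXs differed in how far the other classes came near. Classes are compared as a description, since cells were clustered on their own expression. Rgs5 reached 12624 ± 1941 CPM (mean ± SD, n = 6 PDOXs with at least 10 cells) in pericyte-like cells, from 10602 in T192 to 15987 in P8. In smooth muscle-like cells Rgs5 was at 3761 ± 1313 CPM (n = 6) and in endothelial-like cells at 658 ± 369 CPM (n = 7). These 3 ranges did not overlap. Rgs5 was the pericyte gene most often found in the smooth muscle-like class, where 55.2% of the PDOX cells held a UMI of it once each cell had been thinned to 500 UMIs, against 97.5% of pericyte-like and 2.34% of myeloid-like cells, which should lack it (median depth 871, 852 and 781 UMIs).

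Kcnj8 and Abcc9, the potassium channel subunits, were found almost only in the pericyte-like of the mural classes. Kcnj8 was at 999.8 ± 652 CPM in pericyte-like cells (n = 6), from 296 in P13 to 2177 in T192, and had 1 UMI in the smooth muscle-like cells of all PDOXs. After thinning, 0 of 105 smooth muscle-like cells of the PDOXs held Kcnj8, which allows a share of up to 2.86%, against 25% of pericyte-like cells. Such limits hold for cells with a UMI at this depth, not for cells that express the gene, and 2.94% of the unthinned smooth muscle-like cells of T16 held Kcnj8. Abcc9 was at 526 ± 233.5 CPM in pericyte-like cells, from 290.4 in P13 to 819 in T101, and at 10.9 ± 17.1 CPM in smooth muscle-like cells. Its detection fell from 21.2% of pericyte-like to 1.90% of smooth muscle-like cells. These sums weigh deep cells most. With each cell thinned to 500 UMIs, Kcnj8 was held by 18.0% of the pericyte-like cells of P13, 38.9% of those of P8 and 35.9% of those of T16, whereas Abcc9 was held by 19.0%, 31.5% and 15.4%, so P13 was not the lowest for Abcc9.

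Higd1b and Pdgfrb were less sharply divided. Higd1b was at 1548 ± 820 CPM in pericyte-like cells (n = 6), from 326 in P13 to 2863 in P3, and at 224 ± 143 CPM in smooth muscle-like cells. The ranges of Higd1b overlapped, since the highest smooth muscle-like value, 476 CPM in T16, exceeded P13's pericyte-like value. Pdgfrb was at 467 ± 376 CPM in pericyte-like cells, from 141 in T16 to 1123 in T192, and at 134 ± 150 CPM in smooth muscle-like cells, where 2 PDOXs, P8 and T101, had no UMI. The spread of Pdgfrb between PDOXs within a class was as large as the step between the classes.

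**Figure D1:**
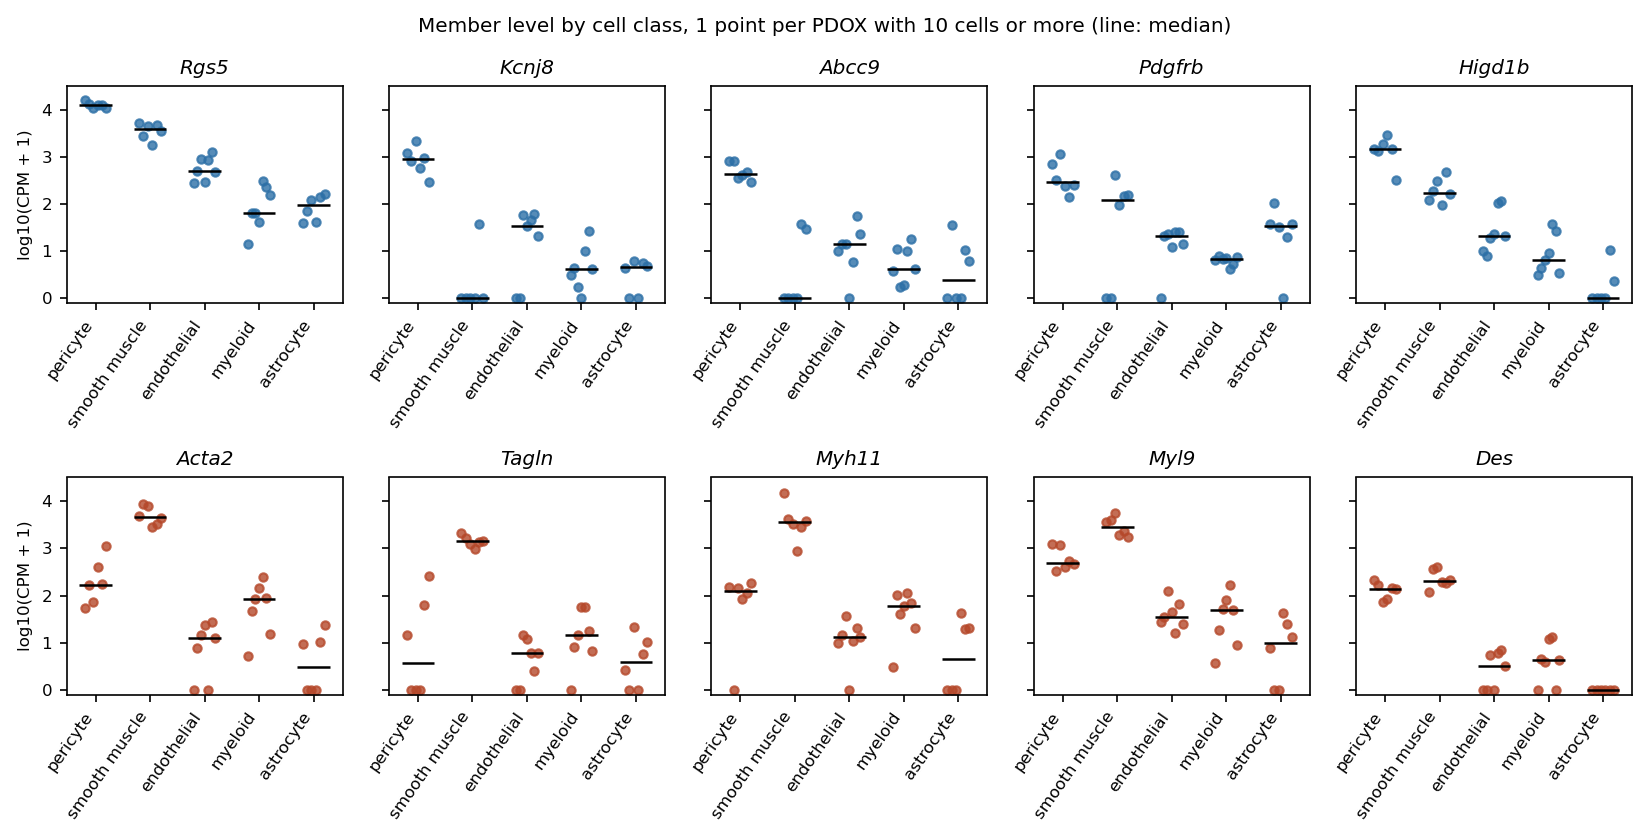
Level of each member by cell class, as log10(CPM + 1) on the vertical axis, with 1 point for each PDOX that had at least 10 cells of the class and a line at the median. Kcnj8 and Abcc9 drop to 0 in most smooth muscle-like sums, Rgs5 falls stepwise from 12624 CPM in pericyte-like cells, and Acta2, Tagln and Myh11 are highest in smooth muscle-like cells.

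The contractile genes were highest in smooth muscle-like cells. Acta2 was at 5358 ± 2517 CPM (n = 6), from 2862 in T233 to 8886 in T101, and Tagln at 1470 ± 404 CPM, from 954 in T233 to 2134 in P8. Myh11 was at 4938 ± 4868 CPM with a median of 3535, and Myl9 at 3142 ± 1447 CPM. The ranges of Acta2, Tagln, Myh11 and Myl9 in smooth muscle-like cells all lay above their ranges in pericyte-like cells. The share of all genes whose ranges part these classes was not computed, so how unusual this is cannot be read. Des, at 247 ± 114 CPM in smooth muscle-like and 135 ± 53.2 CPM in pericyte-like cells, overlapped between the classes.

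Myl9 was found in pericyte-like cells as well. It was at 693 ± 407 CPM there, from 328 in T101 to 1230 in P8, and 28.1% of thinned cells held it (25.9% in P13, where 40.5% held Acta2), against 63.8% of smooth muscle-like and 0.903% of myeloid-like cells. Des was held by 8.44% of pericyte-like and 13.3% of smooth muscle-like cells, and by 0.123% of myeloid-like cells. Myh11, the smooth muscle myosin, was held by 75.2% of smooth muscle-like, 4.38% of pericyte-like and 1.40% of myeloid-like cells. The pericyte-like cells with Myh11 were 11 of 205 in P13, 1 of 54 in P8, 1 of 39 in T16 and 1 of 8 in P3.

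Acta2 and Tagln separated P13 from the other PDOXs within the pericyte-like class, but gaps of this kind were common among all genes. Dixon's 95% criterion asks how far the highest PDOX, whichever it is, lies from the next. In this class it was passed by 16.7% of the 7134 genes with at least 20 UMIs. Of the 10 members 2 passed it, Acta2 and Tagln, a share near that of all genes. Acta2 stood at 1135 CPM in the pericyte-like cells of P13 (1008 UMIs, 95% Poisson interval 1066 to 1207) and at 53.5 (P8) to 409 (P3) CPM in the other 5 PDOXs with at least 10 such cells. Tagln stood at 261 CPM in P13 and at 0 to 62.8 CPM in the others. After thinning, 83 of the 205 pericyte-like cells of P13 held an Acta2 UMI, which is 40.5% (exact 95% interval 33.7% to 47.5%). Unthinned, the share was 72.7% in this deeper library. In the other PDOXs together 3 of 115 cells did, or 2.61%, with 0 of 54 in P8, which allows up to 5.56%, and 2 of 39 in T16. Poisson and binomial intervals cover counting error only. Myeloid-like cells of P13 held Acta2 at 14.7 CPM, below the 242.9 CPM of P3's myeloid-like cells. Acta2 in the smooth muscle-like cells of P13, at 4301 CPM, was within the range of the other PDOXs.

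The pericyte-like class of P13 also differed in its pericyte genes. Kcnj8 and Higd1b were lowest there, at 296 and 326 CPM. At 500 UMIs a cell Higd1b was held by 21.0% of its cells, against 51.9% in P8 and 51.3% in T16. Rgs5 at 10924 CPM was the second lowest of 6. The 10 markers that named the class summed to 1568 CPM in P13 against 5450 to 15727 CPM in the other 5 PDOXs. Deep cells weigh most in this sum, and with each cell of P13 thinned to 500 UMIs both parts of the class described next were above it. The 7 cycling markers, genes of S phase and mitosis such as Top2a and Mki67, summed to 2221 CPM in P13, the highest, and to 70.2 to 1822 in the others. The 8 myeloid markers were also highest in P13, at 8345 CPM against 328 to 7272. Their part in the levels of Acta2 and Kcnj8 was not tested.

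**Figure D2:**
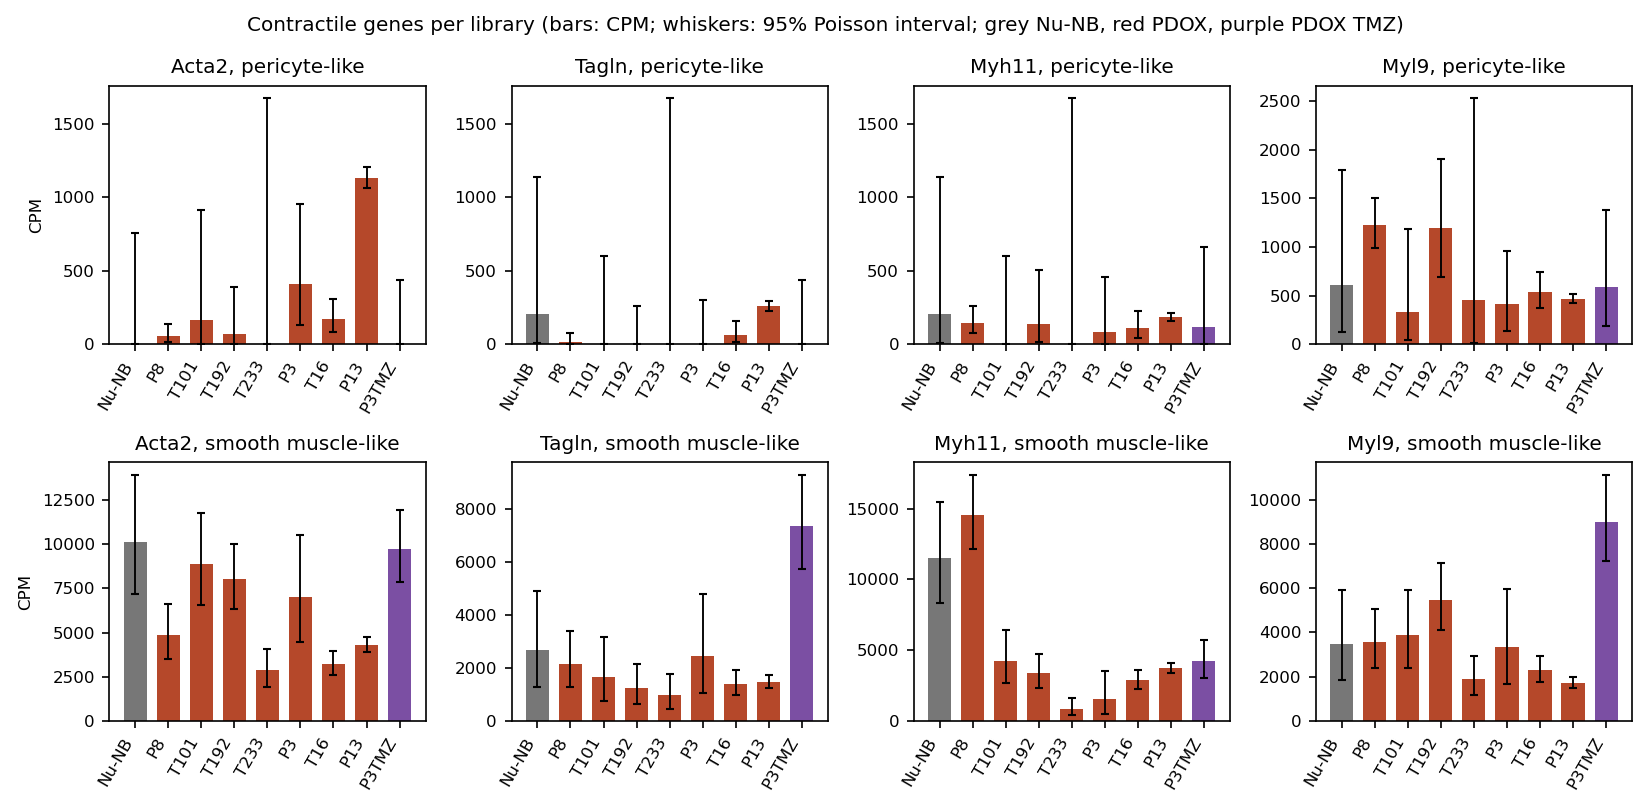
Acta2, Tagln, Myh11 and Myl9 in CPM per library (bars, with 95% Poisson intervals) in pericyte-like cells (top) and smooth muscle-like cells (bottom), each panel with its own axis from 0. In pericyte-like cells P13 stands out for Acta2 at 1135 CPM, and in smooth muscle-like cells Nu-NB and P8 stand out for Myh11, while P3TMZ stands out for Tagln and Myl9.

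Within P13, pericyte-like cells with and without Acta2 were set side by side as a description of 1 library, with a median of 3561 and 2529.5 UMIs per cell before thinning. Of the 83 cells with Acta2, 97.6% held Rgs5, and of the 122 without it, 95.9% did. Tagln was found in 21.7% of cells with Acta2 (exact 95% interval 13.4% to 32.1%) and in 4.10% of those without (1.34% to 9.31%). Myh11 was found in 10.8% (5.08% to 19.6%) and 1.64% (0.199% to 5.80%). The intervals of Tagln did not overlap and those of Myh11 overlapped slightly. The share of all genes whose intervals part in this way was not computed. Kcnj8 was found in 13.3% and 21.3% of cells and Higd1b in 14.5% and 25.4%, with overlapping intervals.

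In P13 the pericyte-like cells with Acta2 were lower than smooth muscle-like cells in the smooth muscle markers and in Myh11. They were not lower in Des or in the pericyte markers. The 6 markers of the smooth muscle-like class, summed in cells thinned to 500 UMIs, were at 506 CPM in pericyte-like cells with Acta2, 639 CPM in those without it and 2844 CPM in smooth muscle-like cells of P13. Myh11 was at 265 CPM in the cells with Acta2 against 4938 CPM in the smooth muscle-like cells, while Acta2 itself was at 3494 and 5469 CPM, the first set by the selection. Des was at 289 CPM in the cells with Acta2 (12 UMIs), 147.5 CPM in those without and 281 CPM in smooth muscle-like cells. The 10 pericyte markers were at 1831 CPM in the cells with Acta2, 4852 CPM in those without and 1687.5 CPM in smooth muscle-like cells. The cells with Acta2 were thus near the smooth muscle-like level in the markers that named their class. The 8 myeloid markers were at 2843, 4475 and 4875 CPM in the same order. The 7 fibroblast markers, collagens among them, were at 2578 CPM in the cells with Acta2, 1918 CPM in those without and 688 CPM in smooth muscle-like cells. Their part in the Acta2 levels was not tested.

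**Figure D3:**
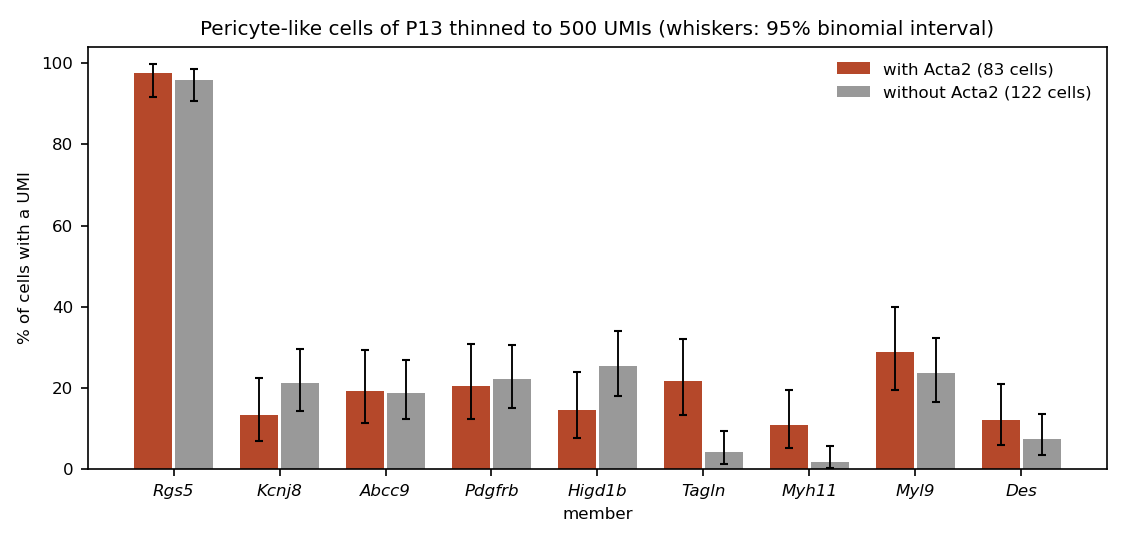
Percent of pericyte-like cells of P13 with at least 1 UMI of each other member, for the 83 cells with Acta2 (red) and the 122 without (grey), all thinned to 500 UMIs, with exact 95% binomial intervals. Tagln and Myh11 are higher in cells with Acta2, at 21.7% and 10.8%, and Rgs5 is near 97% in both.

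Myh11 in smooth muscle-like cells was highest in Nu-NB and P8. It was at 11494 CPM in Nu-NB (43 UMIs in 4 cells, Poisson interval 8318 to 15483) and at 14584 CPM in P8 (123 UMIs in 11 cells, 12121 to 17401), against 859 (T233) to 4258 (T101) CPM in the other 5 PDOXs with at least 10 such cells. The ratio of Myh11 to Acta2 UMIs was 1.13 in Nu-NB and 3.0 in P8 and between 0.217 (P3) and 0.886 (T16) in the other 6 untreated PDOXs. The ratio was 0.430 in P3TMZ. Only Nu-NB and P8 held more Myh11 than Acta2 UMIs, and they were the 2 libraries sorted by FACS with the older release, whose part in the ratio was not tested.

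Pericyte and contractile genes were found together in many single cells. In mural-like cells thinned to 500 UMIs, 48.3% of the 60 cells of P8, 38.3% of the 60 cells of T16 and 58.7% of the 269 cells of P13 held at least 1 UMI of a pericyte gene and at least 1 of a contractile gene. Had the 2 sets been held independently within a library, the product of their separate shares would have given 50.7%, 40.4% and 60.6%. The mean difference was -2.10 ± 0.239 percentage points (SD, n = 3). Cells with neither set were 0% of P8, 5% of T16 and 1.86% of P13, and where no cell lacks both, as in P8, the difference has to be negative, so its sign does not show that the sets avoid each other. The other 4 PDOXs had fewer than 20 such cells. In pericyte-like cells alone nearly every cell held a pericyte gene (97.6% to 100%), so the share with both was that of contractile genes, 50% in P8, 28.2% in T16 and 60% in P13. In myeloid-like cells the share with both was 0% to 1.35% over the PDOXs.

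The pairs of single genes showed which members shared cells. Of the 20 cross pairs of a pericyte and a contractile gene with at least 1 cell given by the product in each of the 3 PDOXs, 13 were found together less often than the product in all 3 and 1, Higd1b with Des, more often. Within pericyte-like cells alone, 0 of the 6 cross pairs that could be read were below the product in all 3 PDOXs and 1 was above. Those 6 pairs were of Rgs5, Kcnj8 or Higd1b with Myl9 or Des, and the pairs with Acta2, Tagln or Myh11, which made up 12 of the 13, were too rare there to be read in 3 PDOXs. Of the 9 pairs of pericyte genes, 7 were found together more often in all 3 PDOXs, against 1 of 9 within pericyte-like cells, and of the 4 pairs of contractile genes 3, each of them with Myl9. Rgs5 was held by 100% of the pericyte-like cells of T16, where its pairs therefore match the product. No Rgs5 pair within that class could thus be above or below it in all 3 PDOXs, which limits both counts within pericyte-like cells. The lowest mean ratio to the product, 0.089, was that of Kcnj8 with Myh11. Of mural-like cells with Kcnj8, 0 of 37 held Myh11 in P13, which allows up to 8.11%, 0 of 21 in P8 and 1 of 14 in T16. Kcnj8 and Abcc9 were found together at a mean of 1.80 times the product in mural-like cells. Within pericyte-like cells the mean was 1.45, with 2 PDOXs above the product and 1 below. Rgs5 and Acta2 shared 105 of the 269 cells of P13, against 115 by the product. These pairs share their cells and were not tested.

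**Figure D4:**
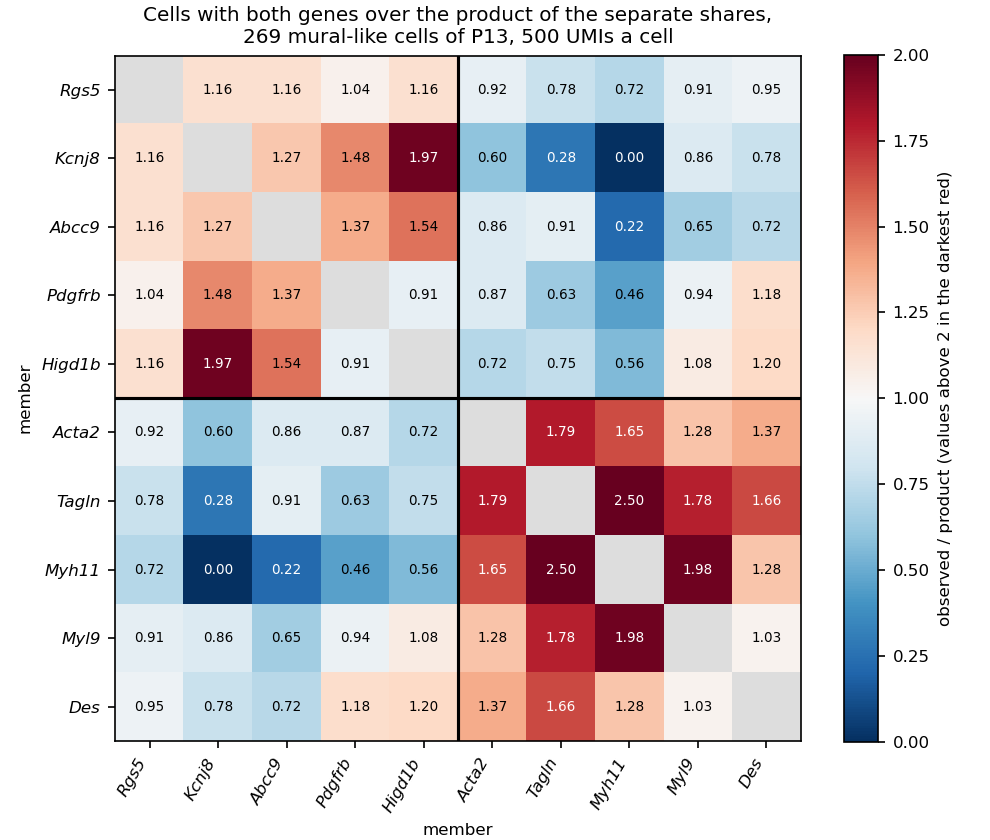
Ratio of cells that held both genes of a pair to the number given by the product of the separate shares, for all pairs of members in the 269 mural-like cells of P13 thinned to 500 UMIs. Pairs within each set are mostly above 1 (red), up to 2.50 for Tagln and Myh11, and most cross pairs are below 1 (blue), down to 0 for Kcnj8 and Myh11.

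Outside mural-like cells the members were low but not absent. Mural-like cells were 624 of the 12125 kept PDOX cells. Pooled over PDOXs they held 52.0% (Myl9) to 68.9% (Kcnj8) of the members' UMIs, but P13 gave 13469 of the 18583 Rgs5 UMIs and weighs most in such pools. The median share over the 7 PDOXs was 24.5% for Pdgfrb (20% to 59.2%), 28.3% for Myl9 (14.3% to 88.4%), 33.3% for Myh11 (7.89% to 95.7%), 40.1% for Rgs5 (26.1% to 92.9%) and 66.0% for Kcnj8 (33.3% to 93.6%). Myeloid-like cells, which were far more numerous, held a median of 42.0% of the Myh11 UMIs of a PDOX (2.14% to 79.0%). Pooled, clusters that mixed markers of several cell types, among them mural ones, held 12.3% (Kcnj8) to 22.2% (Tagln). Endothelial-like cells held a median of 33.6% of the Rgs5 UMIs of a PDOX (2.32% to 36.1%), 27.7% of the Kcnj8 UMIs (0% to 47.4%) and 0.896% of the Acta2 UMIs (0% to 7.02%). After thinning, 19.3% of thinned endothelial-like cells held Rgs5 against 2.34% of myeloid-like cells at a like median depth (737 and 781 UMIs). Rgs5 in endothelial-like cells ranged from 277 CPM in P8 to 1265 CPM in T16.

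Acta2 was higher in myeloid-like than in endothelial-like cells on average, and was held by 2.22% and 0.825% of thinned cells. The share of thinned cells with Myl9 was 0.903% and 2.93% in the same order. Pooled UMIs did not repeat this order for Myl9, with 316 in 3765 myeloid-like and 118 in 2059 endothelial-like cells. Acta2 was at 89.0 ± 83.2 CPM in myeloid-like and 11.4 ± 10.2 CPM in endothelial-like cells (n = 7), and its myeloid-like level ran from 4.17 CPM in P8 to 242.9 CPM in P3. Pdgfrb was found in astrocyte-like cells, which held 27 of its 30 UMIs in Nu-NB and 9.52% of its UMIs in the PDOXs, and 1.93% of thinned astrocyte-like cells of the PDOXs held it against 0.246% of myeloid-like cells.

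The study's main contrast was that of PDOXs with the normal nude brain. In mural-like cells Acta2, Tagln and Myh11 were below Nu-NB in 7 of 7 PDOXs and Pdgfrb was above it in 7 of 7. Over all 692 genes tested, 23.6% were below Nu-NB in every PDOX and 24.9% above it in every PDOX. Acta2 was at 4406 CPM in Nu-NB (38 UMIs, Poisson interval 3118 to 6048) and at 541 (P8), 1805 (median) and 4259 (T101) CPM in the PDOXs. Tagln was at 1276 CPM in Nu-NB (11 UMIs) and at 228 to 789 CPM in the PDOXs. Myh11 was at 5102 CPM in Nu-NB (44 UMIs) and at 387 (P3), 934 (median) and 1999 (T101) CPM in the PDOXs. Pdgfrb had 1 UMI in Nu-NB, and the ratio of the PDOX mean to it was 3.11 with a counting interval of 0.558 to 123.

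None of these differences passed the test. With edgeR's quasi-likelihood test at an adjusted p of at most 0.01 and a log2 fold change of at least 1 in size, 0 of 692 genes were called in mural-like cells, a background of 0%, and 0 of the 9 members tested (Des was too low). At an unadjusted p below 0.05 there were 96 genes, or 13.9%, among them 1 member, and DESeq2 called 0 genes, with 80 at p below 0.05. The log2 fold change was -2.02 ± 0.68 (SE) for Myh11 (edgeR adjusted p = 0.273), -1.19 ± 0.66 for Tagln (adjusted p = 0.383) and -0.94 ± 0.77 for Acta2 (adjusted p = 0.506). For Rgs5 it was 0.36 ± 0.75, for Kcnj8 0.39 ± 1.06, for Higd1b 0.37 ± 1.03 and for Abcc9 -0.72 ± 0.94. The median over all genes tested was 0.54, and it was 0.33 with another scaling (RLE), against 0.37 for the 5 pericyte genes and -1.06 for the 4 contractile genes tested. Nu-NB was 1 library, so its own spread is not known and p-values rest on the spread between PDOXs. The share of smooth muscle-like cells among mural-like cells was 4 of 15 in Nu-NB and ran from 11 of 129 in P8 to 12 of 18 in T233, and its part in the contractile levels was not tested. CPM weigh UMIs rather than cells. The 4 smooth muscle-like cells of Nu-NB held 38 of its 38 mural-like Acta2 UMIs, 43 of 44 for Myh11 and 10 of 11 for Tagln. Within the FACS-sorted libraries, P8 was below Nu-NB for Acta2, Tagln and Myh11 (541, 228 and 1610 CPM) and above it for Rgs5 (14896 against 8465 CPM). In smooth muscle-like cells alone the order of Myh11 was the other way, with P8 at 14584 CPM and Nu-NB, on 4 cells, at 11494 CPM. Acta2 and Tagln kept their order there, with P8 below Nu-NB.

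In sums over all kept cells, which hold every cell class, more mural cells and more RNA per cell cannot be told apart, and PDOXs held 1.94% to 9.71% mural-like cells where Nu-NB held 0.845%. Rgs5, Kcnj8, Higd1b, Myh11, Myl9 and Des were above Nu-NB in 7 of 7 PDOXs, 6 of the 10 members against 22.7% of the 12293 genes tested, and no member was below it in all 7, against 24.2% of genes. Myl9 was at 19.7 CPM in Nu-NB and at 95.4 CPM on average in the PDOXs, a log2 fold change of 2.35 ± 0.72 (edgeR adjusted p = 0.193). Rgs5 was at 92.7 CPM in Nu-NB and at 95.1 (T233) to 1944 (P13) CPM in the PDOXs (2.81 ± 1.51, adjusted p = 0.339). Des had 1 UMI in Nu-NB, and the ratio of the PDOX mean to it was 13.6 with a counting interval of 2.45 to 539. Pdgfrb was at 25.7 CPM in Nu-NB and at 23.7 CPM on average in the PDOXs (-0.04 ± 0.82). edgeR called 0 of the 12293 genes (0%) and 2303 were at an unadjusted p below 0.05, or 18.7%, among them Myl9 and Des. DESeq2 called 208 genes, 172 of them higher, and no member. The median log2 fold change over all genes was 0.12, against 2.33 for the pericyte and 2.04 for the contractile genes.

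**Figure D5:**
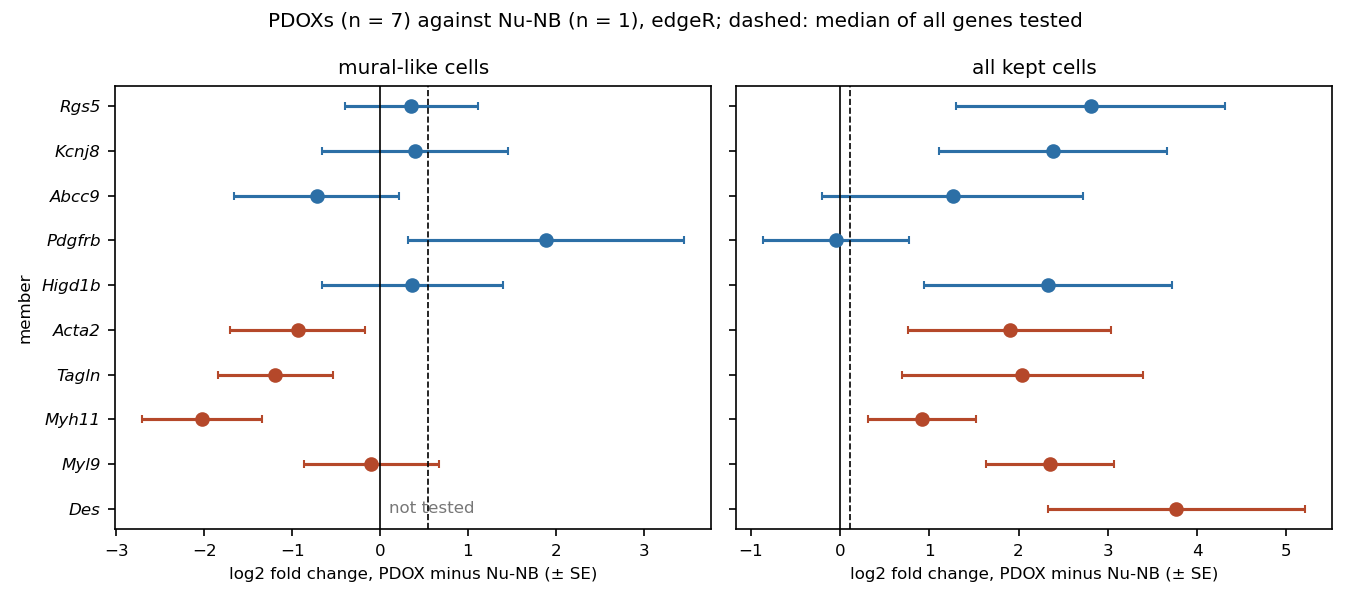
Log2 fold change of each member, PDOXs (n = 7) minus Nu-NB (n = 1), with its SE from edgeR, in mural-like cells (left) and in all kept cells (right), and a dashed line at the median of all genes tested. In mural-like cells Myh11 lies lowest at -2.02, and in all kept cells 9 of the 10 members lie above the median line.

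In endothelial-like cells 5 members passed the filter on low counts and edgeR called 0 of 6222 genes (0%), with 846 at an unadjusted p below 0.05, while DESeq2 called 0 with 406. Rgs5 was at 377 CPM in Nu-NB (6 UMIs) and at 277 (P8) to 1265 (T16) CPM in the PDOXs, with a log2 fold change of 1.70 ± 1.0 (adjusted p = 0.434) where the median over all genes was 0.72, or 0.46 with RLE scaling. With no doublet step the log2 fold change of Rgs5 was 0.29. Kcnj8 and Myl9 had no UMI in the 34 endothelial-like cells of Nu-NB, so the fitted folds of these 2 genes depend on the prior count and are not given (adjusted p = 0.641 and 0.527 with edgeR).

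Related genes of the same pathways were read from 4 lists. The contractile apparatus list had 19 genes, of which 18 were in every table, and 17 of these had a higher mean CPM in smooth muscle-like than in pericyte-like cells. Its most abundant genes in mural-like cells were Cald1, an actin-binding regulator (4913 ± 907 CPM in pericyte-like and 9585 ± 4236 in smooth muscle-like cells, n = 6 each), Tpm1 (1052 ± 264 and 5455 ± 2841) and Tpm2 (333 ± 174 and 4004 ± 1713), which encode tropomyosins. Of the 10 genes of vascular tone signaling, 6 had a higher mean in pericyte-like cells, among them the soluble guanylate cyclase subunits Gucy1b3 (914 ± 486 and 685 ± 519 CPM) and Gucy1a3 (741 ± 411 and 390 ± 246 CPM), whose ranges of 1 SD overlapped. Rgs4, a relative of Rgs5, was at 593 ± 442 and 672 ± 166 CPM. For these counts of genes higher in 1 class, the share over all genes was not computed. Of the PDGF axis, Pdgfa was at 193 ± 108 CPM in mural-like and 43.2 ± 37.0 in endothelial-like cells, whereas Pdgfb, the pericyte-recruiting ligand, was at 29.9 ± 29.8 and 94.0 ± 40.2 CPM (n = 7). The partner genes of other ATP-sensitive potassium channels, Kcnj11 and Abcc8, were not in every table and were not read.

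Against Nu-NB, none of the list genes was called in mural-like cells. Of the contractile apparatus 6 genes were tested, 0 were called and 4 were below Nu-NB in every PDOX (background 23.6%), with a median log2 fold change of -1.01. Cald1 was among these 4, at 11712 CPM in Nu-NB (log2 fold change -0.82 ± 0.58, adjusted p = 0.466). Of vascular tone signaling 4 genes were tested and 0 called, with a median of -0.28, and Rgs4 was below Nu-NB in 7 of 7 PDOXs (-1.70 ± 0.78, adjusted p = 0.35). No PDGF axis gene passed the filter on low counts in mural-like cells.

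The summed levels of the pericyte and contractile genes were compared over the 6 PDOXs with at least 20 mural-like cells. The pericyte genes summed to 18656 CPM in P8, 10169 in T101, 11620 in T192, 13796 in P3, 12398 in T16 and 11230 in P13. The contractile genes summed to 4048, 9300, 8425, 3804, 3704 and 3143 CPM in the same order. T101 and T192 thus had the highest contractile sums. Pearson's r was -0.46 (exact permutation p = 0.319) and Spearman's rho -0.20 (exact permutation p = 0.714), both two-sided, with Benjamini-Hochberg adjusted values of 0.639 and 0.714 over these 2 measures. Without P8 and T101, the 2 libraries farthest from the median, r was -0.28 and rho turned to 0.4. No relation was shown at this number of libraries.

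Over 47 sums of 1 cell class in 1 library, the genes whose pattern was most like that of the summed pericyte genes were Ndufa4l2 (r = 0.86 of log2(CPM + 10) values), Aspn (0.84), Cox4i2 (0.83), Rgs4 (0.83) and P2ry14 (0.82), among 3665 genes. For the summed contractile genes they were Tpm2 (0.88), Aspn (0.77), Ppp1r14a (0.76), Mustn1 (0.75) and Mylk (0.74). Ndufa4l2, Cox4i2, P2ry14 and Mustn1 were markers that named the mural classes, the sums of a library share its depth, and the values are a description.

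The TMZ-treated P3 library was set beside the untreated P3 library, 1 against 1, with no test. In mural-like cells the counts of 4 contractile genes were higher with TMZ beyond counting error, and in all kept cells 4 members were lower. In mural-like cells Tagln was at 3899 CPM with TMZ (70 UMIs, Poisson interval 3039 to 4926) and 516 CPM without (8 UMIs, 223 to 1016), a ratio of 7.56. Acta2 was at 5180 (4181 to 6346) and 1805 (1199 to 2609) CPM, Myh11 at 2284 (1639 to 3098) and 387 (142 to 842) CPM, and Myl9 at 5069 (4081 to 6223) and 1031 (590 to 1675) CPM. The counting intervals of Acta2, Tagln, Myh11 and Myl9 did not overlap, and each TMZ value was above all 7 untreated PDOXs. Over all genes with at least 20 UMIs in the 2 libraries together, such a higher count was seen in 15 of 210, or 7.14%, and a lower one in 24, or 11.4%, beside 4 higher and 0 lower of the 7 members at that depth. Counts higher than P3 in this way and also above all 7 PDOXs made up 3.81% of those genes. With at least 3 UMIs the shares were 0.848% higher and 1.29% lower, beside 4 and 0 of the 10 members. The intervals of the 5 pericyte genes and Des overlapped, with Rgs5 at 10081 and 10444 CPM. Smooth muscle-like cells were 16 of 31 mural-like cells with TMZ and 6 of 25 without. Within smooth muscle-like cells Tagln was at 7348 (5728 to 9284) against 2435 (1051 to 4797) CPM and Myl9 at 9028 (7221 to 11149) against 3348 (1671 to 5990) CPM, whereas the intervals of Acta2, Myh11 and Rgs5 overlapped. In those cells 13.2% of the 53 genes with at least 20 UMIs were higher with TMZ in this way and 13.2% were lower, beside 2 and 0 of 5 members. In all kept cells Acta2 was lower with TMZ, at 127 (106 to 150.3) against 201 (170.2 to 235) CPM, as was Myh11, at 54.6 (41.4 to 70.5) against 99.0 (78.0 to 124) CPM. Rgs5 and Higd1b were also lower there, at 293 against 675 CPM and 26.3 against 100.3 CPM, and the intervals of the other 6 members overlapped. Of the 8544 genes with at least 20 UMIs there, 8.06% were lower with TMZ in this way and 4.18% higher, beside 4 and 0 of the 9 members at that depth. The UMIs of the 5 contractile genes outside mural-like cells moved with this, at 190 UMIs (592 CPM) in myeloid-like cells of P3 and 42 UMIs (57.1 CPM) in those of P3TMZ, and at 107 UMIs in 13 mixed cells of P3 and 1 UMI in 6 mixed cells of P3TMZ. Their part in the lower levels was not tested. Counting intervals leave out the spread between animals.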

How the data were processed

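Mouse cells of normal nude brain (1 library), 7 untreated PDOXs and 1 TMZ-treated PDOX were profiled by Drop-seq. The authors deposited 1 table of raw UMI counts per library (genes by cell barcodes), made by them with STAR on mm10 (GRCm38) and bcl2fastq 2.0 per the labels, and no normalized values were used. There were 0 columns of per-sample values left unmapped.

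Cells with at least 200 genes and at most 30% mitochondrial counts were kept, and the 5% with the highest scrublet score (scanpy 1.11.5) were left out as likely doublets. Cells were clustered (2000 variable genes, 30 components, 20 neighbours, Leiden resolution 1 with leidenalg 0.10.2, Python 3.11.15, numpy 2.4.6, scipy 1.17.1) without the members and without the related gene lists. A cluster was named where at least 3 markers and at least 50% of a marker list were enriched and at least 30% of its cells held several of them. This naming rule was revised 2 times after clusters had been seen and before any gene was tested. Class names were thus rebuilt here and may differ from those of the study.

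UMIs were summed per library and class, and means over PDOXs and the edgeR and DESeq2 tests used sums of at least 10 cells. The correlation of the summed sets used PDOXs with at least 20 mural-like cells, so T233, with 18, was left out. Values of 4 smooth muscle-like cells in Nu-NB and 6 in P3 are given as single values. The test of PDOXs against Nu-NB was that of edgeR 4.0.16 (R 4.3.3, TMM scaling, quasi-likelihood test, Benjamini-Hochberg adjustment over all genes tested), with a call at an adjusted p of at most 0.01 and a log2 fold change of at least 1 in size, and DESeq2 1.42.0 was an alternative. Cells were thinned to 500 UMIs for shares and co-detection. The floor for a count of 0 was 3 counts, and intervals were exact at 95%. The tests were run on simulated counts with large changes and a fixed spread. That check does not cover smaller changes or the spread between these libraries. P-values measure only the spread between these libraries. The 10 members were always named, together with up to 3 genes of each related list with the highest mean CPM in mural-like cells and the 5 genes most like each set. Any other gene was named after its values were seen. Members and lists were chosen with earlier results of these data known. The angiogenic and invasive types of PDOX are not in the labels and were not compared.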

Additional observations from a re-analysis of the deposited data

Results flagged for a closer look

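In 7 of 50 groups of PDOX values, each for 1 member in 1 class, the highest library lay further from the next than Dixon's 95% criterion allows. Chance gives about 1 in 20 groups if values are normally distributed. Over all genes the same criterion was passed in 31.6% of the 59680 gene and class groups with at least 1 UMI, beside 14% for the members. With at least 20 UMIs it was passed in 14.6% of the 37928 groups, beside 6 of the 46 member groups (13%). The members were thus flagged no more often than all genes at either depth. In pericyte-like cells P13 was far above the others for Acta2, at 1135 CPM against 53.5 to 409, and for Tagln, at 261 CPM against 0 to 62.8. In smooth muscle-like cells P8 was far above the others for Myh11, at 14584 CPM against 859 to 4258. Kcnj8 in smooth muscle-like cells of T16, at 36.6 CPM against 0, rested on 1 UMI, and with every other library at 0 any UMI there passes the criterion. Abcc9 in endothelial-like cells of T16 was at 53.8 CPM (35 UMIs) against 0 to 22.5 CPM. In all kept cells P13 was highest for Rgs5, at 1944 CPM against 95.1 to 882, and for Pdgfrb, at 59.8 CPM against 8.48 to 29.4, and P13 also had the highest share of mural-like cells, 9.71%.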

How the results depend on the processing

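Nu-NB was 1 library of 15 mural-like cells, and this depth limits each comparison with it. Over the alternatives run, 69 values that answer a comparison kept their direction and their side of the threshold, or moved by less than the stated margin, 2 moved and 1 reversed. Of the values of single genes, 261 did so and 14 reversed. In all kept cells DESeq2 called 208 genes where edgeR called 0, and leaving out 1 PDOX at a time gave 0 to 4 calls, with the 4 reached without P8. No member was called under any alternative. The log2 fold changes near 0 changed sign. Without 1 PDOX at a time, that of Kcnj8 in mural-like cells ran from -0.017 (without T192) to 0.76, that of Myl9 in mural-like cells from -0.50 to 0.17, that of Higd1b in endothelial-like cells from -0.46 to 0.59 and that of Pdgfrb in all kept cells from -0.46 to 0.081. With no filter on low counts Myl9 in mural-like cells was at 0.42, and with no doublet step Higd1b in endothelial-like cells was at -0.81 and Pdgfrb in all kept cells at 0.090. With no doublet step that of Rgs5 in endothelial-like cells fell from 1.70 to 0.29. With no doublet step 1 cluster of 700 cells held the markers of both mural classes and no smooth muscle-like class was named, so contrasts between these classes could not be made under it. The mean co-detection difference was -4.67 points at 300 UMIs a cell (5 PDOXs), -1.29 at 1000 UMIs (2 PDOXs), -3.39 without Myl9, 0.171 in pericyte-like cells alone, an alternative chosen after seeing the data, and -2.22 to -1.98 points without 1 PDOX at a time. Spearman's rho between the summed sets was 0.4 without the 2 farthest libraries and ran from -0.6 to 0.4 without 1 PDOX at a time. The cause of these changes was not tested. No paired analysis was possible because the labels give no replicate numbers and Nu-NB was 1 library.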
